A study of Mus musculus with 12 samples.

Results

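Of 498516 regions of open chromatin merged from 12 peak lists, 13132 (2.63%) were covered by a peak in both lists of upper-layer projection neurons at E17.5 and in none of the other 10 lists. These regions, chosen by whether a peak was listed in each of the 12 samples, are called members here. A region is a set of peaks that overlap or touch, and it counts as open in a list when a peak of that list covers at least 1 bp of it. Since that presence made the choice, it is given as a description with no test. Positions are on mouse build mm9, counted from 1.

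Accessible DNA was mapped by ATAC-seq, where a transposase cuts open chromatin and tags the fragments for sequencing, in GFP-positive projection neurons sorted out of the neocortex of CD1 mice. Upper-layer neurons received a plasmid carrying GFP behind a Cdk5r promoter by in utero electroporation at E15.5 and were taken at E17.5, P1 and P5, so each list holds only cells that took up the plasmid. Deep-layer neurons expressed the Golli-GFP transgene and were taken at 3 embryonic stages (E13.5, E16.5, E18.5), and every cell of both populations therefore carried a GFP reporter. Each of the 6 groups had 2 replicates of 2 to 8 pooled animals, and no label ties replicates to different litters, so a p-value here reflects how much lists vary, which may be technical. The E17.5 samples are the only upper-layer samples from before birth.

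Upper-layer projection neurons are born late in cortical neurogenesis, migrate past the deep layers, and send most of their axons to other cortical areas, many across the corpus callosum. Soon after birth such a neuron is still migrating or settling in the cortical plate, and it matures while its axon grows. Open chromatin marks promoters and distal enhancers, and distal sites differ most between cell types and stages. Cell type marker genes and the genes next to the members are not analysed here, because no annotation of the build of the files was used.

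The lists held 96452 to 164508 peaks, and E17.5 replicate 1 was the longest. Both E17.5 lists carried one and the same library name in their peak names. Of the regions of replicate 2, 93.6% were also open in replicate 1, and 69.1% the other way. In either direction the deep-layer pairs shared 60.3% to 81.2%, and the P1 and P5 pairs only 34.9% to 43.2%. The E17.5 lists shared 103 identical intervals, against 23 to 46 in the other replicate pairs. Whether the E17.5 lists are independent libraries was not tested, and values are given for each list where they can be. The lists gave no score, height or read total, so the width of a peak is the sole measure of its size, and the number of peaks stands for depth.

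The members were taken out of 110937 regions open in both E17.5 lists, of which they made up 11.8%. Replicate 1 was open in 160512 regions and replicate 2 in 118569. A further 24423 regions were open in replicate 1 and in no other list, and 2812 in replicate 2 and no other list. Replicate 2 was thus the list that limited the membership. With replicate 1 alone standing for E17.5 there would be 37555 members, and with replicate 2 alone 15944.

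The same rule applied to the other replicate pairs gave 6786 regions for deep-layer E13.5, 666 for E16.5 and 2021 for E18.5. It gave 5564 regions for upper-layer P1 and 4071 for P5. As a percentage of the regions open in both lists of the pair, these were 7.24%, 0.935% and 2.79% in deep-layer neurons, and 12.5% and 9.33% at P1 and P5. The E17.5 members were the most numerous, but their 11.8% lay between the values of P1 and P5. When every list was cut to its 96452 widest peaks the E17.5 percentage was 10.7% (8442 regions), and after random thinning to that length it was 14.7% (7689 regions). The deep-layer pairs lay between 1.61% and 6.77% with the widest peaks and between 1.77% and 9.41% after thinning, so E17.5 stayed above them in both. The rule rests on these same counts, so no test of them is given.

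**Figure D1:**
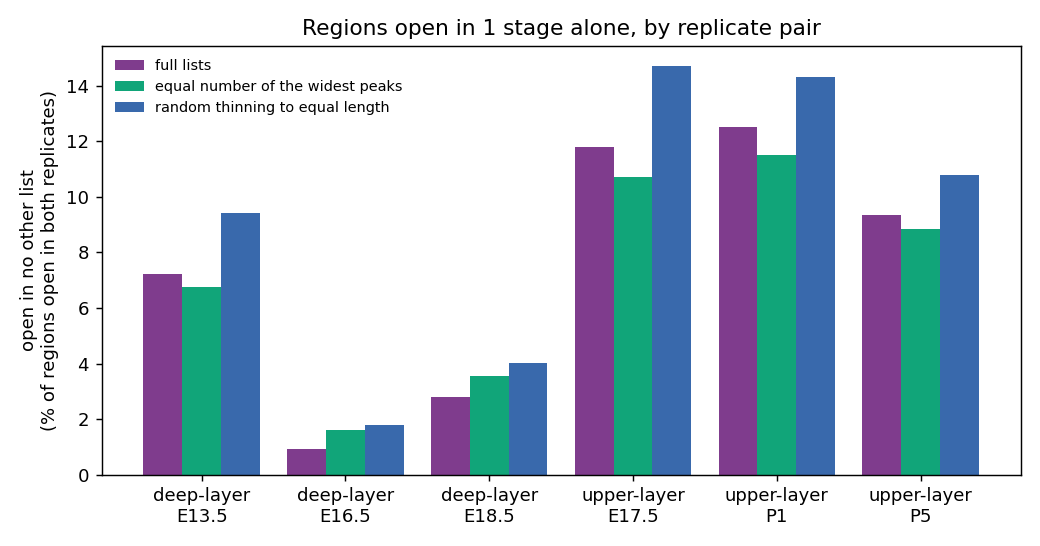
The bars give, for each replicate pair, the percentage of regions open in both of its lists that were open in no other list, in the full lists and at 2 kinds of equal list length. Upper-layer E17.5 (11.8%, 10.7% and 14.7%) stood near P1 (12.5%, 11.5% and 14.3%) and above each deep-layer pair.

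Just outside the rule lay 9452 regions open in both E17.5 lists and in exactly 1 other list. In 7516 of them (79.5%) the other list was a deep-layer one, and in 1936 (20.5%) it was a P1 or P5 list. Deep-layer E13.5 replicate 2, the longest of the other lists, accounted for 3315 (35.1%) and E13.5 replicate 1 for 1792 (19%). The remaining deep-layer lists gave 1066 and 392 regions at E16.5 and 147 and 804 at E18.5. The postnatal lists gave 371 and 495 regions at P1 and 359 and 711 at P5. Of all regions open in both E17.5 lists, 48.3% to 73.1% were open in a given deep-layer list, highest in E13.5 replicate 2, and 28.5% to 35.5% in a given P1 or P5 list. At the far end, 17048 regions were open in all 12 lists.

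Members had narrower peaks than the other regions open in both E17.5 lists. In E17.5 replicate 1 the median width of the 13188 member peaks was 452 bp (quartiles 345 and 629), beside 666 bp (449 and 981) for the peaks of other regions open in both lists. In replicate 2 the median of the 13262 member peaks was 346 bp (265 and 451), beside 536 bp (377 and 857). Peaks found in replicate 1 and no other list were narrower still, at a median of 291 bp. Averaged over both lists, the mean peak width had a median of 402 bp over the members, 437 bp over the regions with 1 further open list and 1049 bp over the regions open everywhere. Membership fell with width: 30.8% of the E17.5 regions with a mean width from 200 to 300 bp were members, 15.1% of those from 400 to 500 bp, 3.8% of those from 800 to 1000 bp and 0.142% of those of 1500 bp or more. Width is related to whether a region is found in many lists, so this is a description. Regions open in another pair alone were narrower than the members, with medians of the same measure from 293 bp (E16.5) to 342.5 bp (E18.5). The E17.5 lists also had the largest median peak widths of all lists, 489 and 481 bp. How often a narrow peak was missed in another list was not tested.

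**Figure D2:**
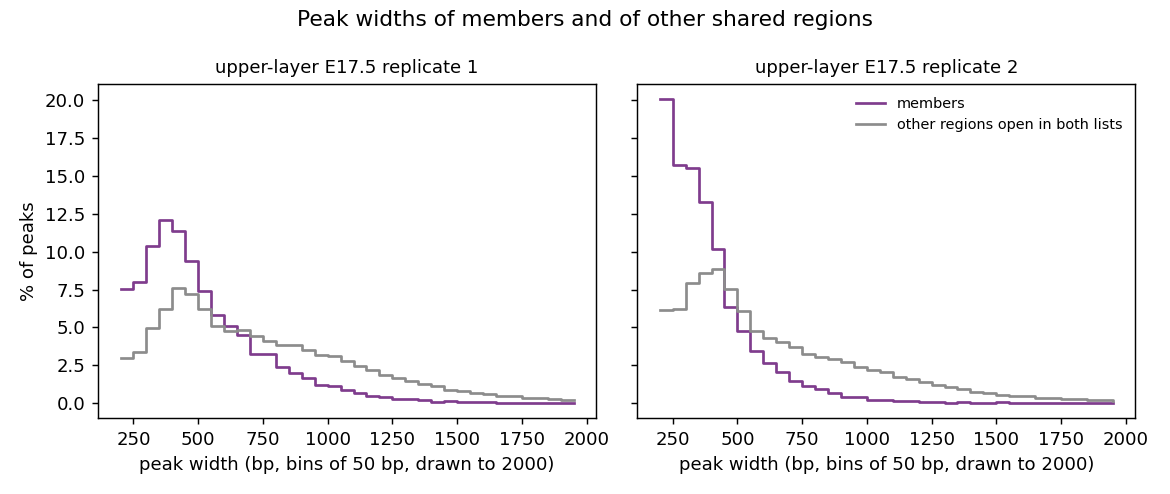
Each panel shows 1 E17.5 list, with the peak width in bp on the horizontal axis and the percentage of peaks per 50 bp bin on the vertical axis, for member peaks and for peaks of the other regions open in both lists. Member peaks lie to the left in both panels, with medians of 452 and 346 bp against 666 and 536 bp.

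A small group of members was wide. There were 215 members (1.64%) with a mean peak width of 1000 bp or more, out of 20307 such regions open in both E17.5 lists. By the same measure the deep-layer pairs held 4 of 6975 at E13.5, 0 of 5954 at E16.5 (up to 0.0504% if 3 counts are taken as the limit) and 5 of 14007 at E18.5, and P1 and P5 held 1 of 4815 and 4 of 5530. The E17.5 share was 1.06% (95% Wilson interval 0.927% to 1.21%, counting error only), beside 0.0208% to 0.0723% in the 4 pairs that had any. When widths were ranked within each pair, the widest 20% held 258 of 22188 E17.5 regions (1.16%), 46 of 18736 at E13.5 (0.246%), 16 of 8888 at P1 (0.18%) and 10 of 8731 at P5 (0.115%). At E16.5 and E18.5 they held 0 of 14251 and 5 of 14467 (0.0346%). In the narrowest 20% the order differed: 26.0% at E17.5, 20.7% at E13.5, 25% at P5 and 32.8% at P1. There E16.5 and E18.5 had 3.72% and 9.1%.

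The wide group was also read in each list without asking for its partner. Regions with a peak of 1000 bp or more that were open in no list of another stage numbered 680 in E17.5 replicate 1 and 138 in replicate 2, or 2.72% and 0.766% of the wide regions of the list. The deep-layer lists had between 0 and 24 (at most 0.173%), and the P1 and P5 lists had 13 to 99 (0.176% to 1.89%). Both E17.5 lists thus lay above each deep-layer list, while P5 replicate 1 lay between them by percentage, at 1.89%. Of these regions, 616 of the 680 and 137 of the 138 were open in the E17.5 partner. The deep-layer lists with any had 3 of 3 and 14 of 15 at E13.5 and 5 of 5 and 20 of 24 at E18.5, and the P1 and P5 lists had 6 of 16, 9 of 13, 20 of 99 and 8 of 13. Ranked within each list the order changed: of the widest 20%, 3.43% and 1.05% were open at that stage alone in the E17.5 lists, but 2.4% to 15.2% in the P1 and P5 lists, where these began at 493 to 586 bp (903 and 892 bp at E17.5). The deep-layer lists ranged from 0.0388% to 1.0%, with the highest, E13.5 replicate 2, close to E17.5 replicate 2. Ranked by width, single lists thus did not show the gap that the pairs showed.

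**Figure D3:**
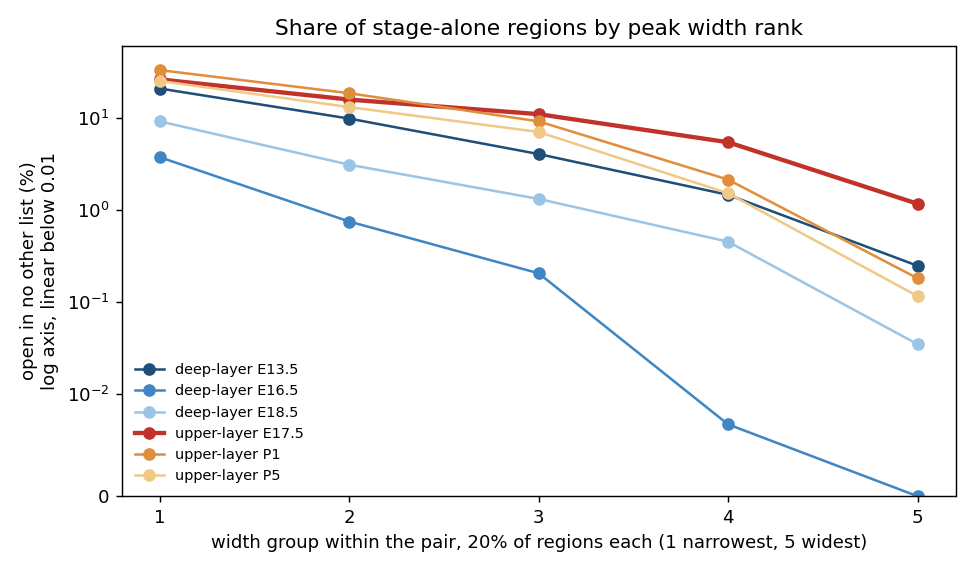
For each replicate pair, regions open in both lists were ranked by mean peak width and cut into 5 groups of equal size (horizontal axis), and the points give the percentage open in no other list (log axis, linear below 0.01). The lines fall in all 6 pairs, and in the widest group E17.5 was the highest at 1.16%.

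The widest member lay on chromosome 14 from 103027583 to 103029363. Its peak was 1745 bp wide in replicate 1 and 1673 bp in replicate 2, and the nearest peak of another list, from P1 replicate 1, was 746 bp away. The second lay on chromosome 3 from 117817548 to 117819145, with peaks of 1590 and 1523 bp, and its nearest other peak was 6506 bp away. On chromosome 17, a member from 90451925 to 90453468 had peaks of 1543 and 1533 bp that began 1 bp apart, and a deep-layer E13.5 peak lay 387 bp from it. In these 3 the replicates gave nearly the same interval.

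The fourth, on chromosome 12 from 76162402 to 76164495, was 1 peak of 2033 bp in replicate 1 and 2 peaks in replicate 2, the wider of 986 bp. A member on the X chromosome from 135192491 to 135194043 had peaks of 1501 and 1518 bp and, of the widest 10, the longest distance to another peak, 9848 bp. Chromosome 5 held a pair, from 78190980 to 78192598 (1619 and 1396 bp) and from 41866841 to 41868454 (1341 and 1584 bp). The first of these had its nearest deep-layer peak 28747 bp away, while the second had peaks of 3 other lists within 1000 bp.

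The remaining members of the widest 10 were on chromosome 1 from 186432321 to 186433929 (1609 and 1263 bp), on chromosome 6 from 97899737 to 97901344 (1608 and 1261 bp) and on chromosome 6 from 9176158 to 9177652 (1484 and 1377 bp). At 97899737 a peak of deep-layer E16.5 replicate 2 lay 151 bp away and 4 lists had a peak within 1000 bp, so this member bordered chromatin open elsewhere. Replicate 1 had the wider peak in 8 of these 10 members.

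Typical members were much smaller. The 3 nearest the median had peaks of 457 and 347 bp (chromosome 1 from 3362900 to 3363356), 465 and 339 bp (chromosome 1 from 99549195 to 99549659) and 419 and 385 bp (chromosome 10 from 124695643 to 124696061). They differed in their surroundings: 6 lists had a peak within 1000 bp of the first, while the nearest other peak was 1129 bp from the second and 5891 bp from the third. The 3 narrowest were 200 bp wide in each list, the smallest width in the files. They lay on chromosome 1 from 149368713 to 149368934 and on chromosome 10 from 24467935 to 24468161 and from 47725804 to 47726023.

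Wide regions also lay just outside the rule. The widest with 1 other open list was on chromosome 12 from 95633191 to 95635037, with E17.5 peaks of 1835 and 1820 bp and a peak of 391 bp in deep-layer E18.5 replicate 2. The next were on chromosome 16 from 51879877 to 51882243 (a deep-layer E13.5 peak of 274 bp), chromosome 2 from 57946000 to 57947907 (E13.5, 320 bp), chromosome 15 from 8765123 to 8767340 (E13.5, 340 bp) and chromosome 1 from 81517227 to 81518830 (E16.5, 254 bp). In all 5 the other peak was narrow and from a deep-layer list. The first 3 of them had a larger mean peak width than the widest member.

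The peaks of the 2 E17.5 lists lay close together in most members. Where each list had 1 peak, the rule itself made the 2 peaks overlap or touch. Their closeness is thus partly fixed in advance, and whether the lists are independent libraries was not tested. In 12949 members (98.6%) each list had exactly 1 peak. The midpoints of these peaks were a median of 38 bp apart, beside 33 bp in the other regions open in both lists. Their overlap was a median of 70.4% of their joint length, against 83.2% in the other regions, and it was at least 0.5 of that length in 83.3% of members and 92.9% of the others. The replicate 1 peak was the wider in 77.7% of members and 71.3% of the others, and held the replicate 2 peak entirely in 54.8% and 48.6%. Among these members 4 had the identical interval in both lists, and 26 rested on an overlap under 50 bp.

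A member closed in the other lists could still lie close to their peaks, which is given here as a description. The nearest peak of any other list was a median of 1729 bp from a member. It lay within 100 bp of 435 members (3.31%), within 1000 bp of 4537 (34.5%) and within 10000 bp of 12257 (93.3%). For 8595 members (65.5%) no other list had a peak within 1000 bp. A deep-layer list alone was near in 2152 members (16.4%), a P1 or P5 list alone in 1434 (10.9%) and lists of both kinds in 951 (7.24%), while 85 members had a peak of all 10 lists within 1000 bp. With 6 deep-layer lists against 4 P1 and P5 lists, these shares are not like for like. The same shares over all regions are not given, so they only describe the members. By single list, the share within 1000 bp was 0.603 to 1.03 times that of all regions closed in the list, as given below. The 215 wide members had such a near peak in 57 cases (26.5%), beside 34.7% of the narrower ones.

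Which lists had peaks beside the members was not fixed by the rule, so it was compared between the 6 deep-layer and the 4 later upper-layer lists. Deep-layer E13.5 lists had a peak within 1000 bp of 11.4% and 13.9% of members, where 11.1% and 13.5% of all regions closed in those lists had one. At E16.5 the values were 10.7% and 7.54%, beside 11.1% and 8.36% of all closed regions. At E18.5 they were 6.94% and 11%, beside 8.66% and 11.2%. Both E13.5 lists and replicate 1 of E16.5 and replicate 2 of E18.5 had shares near that of all closed regions, and the 2 shortest lists had lower ones.

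In P1 lists the values were 6.84% and 7.27%, beside 10.7% and 11.3% of all closed regions. At P5 they were 7.33% and 6.37%, beside 12.1% and 9.93%. The 95% Wilson intervals, for counting error only, were narrow, such as 6.42% to 7.28% for P1 replicate 1 and 13.3% to 14.5% for E13.5 replicate 2. The shares averaged 10.2% ± 2.59 (SD, n = 6) over deep-layer lists and 6.95% ± 0.443 (SD, n = 4) over P1 and P5 lists, and the ranges overlapped (6.94% to 13.9% and 6.37% to 7.33%). The difference of 3.28 percentage points had an exact permutation p of 0.0286, two-sided, over 210 splits of the lists. Its adjusted p was 0.0286 over the 2 planned tests. It passed 0.05 in only 2 of the 10 fits that each left out 1 list (exact permutation p from 0.0159 to 0.0833).

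Divided by the share of all closed regions of the same list, the values did not overlap. The ratio was 0.802 to 1.03 for deep-layer lists, with a mean of 0.95 ± 0.0853 (SD, n = 6), and 0.603 to 0.644 for P1 and P5 lists, with a mean of 0.631 ± 0.0192 (SD, n = 4). The exact permutation p was 0.00476, two-sided, the smallest that 210 splits can give, and 0.00952 after adjustment over the 2 planned tests. The test compares the lists with each other, and whether members differ from the background within a list was not tested. Regions closed in a list could be open in other lists, including its replicate, while members were open at E17.5 alone. The ratios are therefore not independent of the rule. Each stage gave 2 lists, and the splits counted these as separate units, here and for the shares above. Neither p-value therefore measures how much stages vary. All 4 later upper-layer lists were postnatal and all 6 deep-layer lists prenatal, so population and birth cannot be told apart here.

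The gap depended on the background. Against closed regions open in exactly 2 lists, members among them, the ranges stayed apart. That background was added after seeing the data. The ratio was 0.779 to 0.991 for deep-layer lists and 0.633 to 0.653 for P1 and P5 lists (exact permutation p = 0.00476). Neither this p-value nor the next was adjusted. Against the other E17.5 regions closed in the same list, a background chosen after seeing the data, the ratio was 0.771 to 0.914 for deep-layer lists and 0.765 to 0.832 for P1 and P5 lists, and the ranges overlapped. Their means of 0.846 ± 0.0525 (SD, n = 6) and 0.802 ± 0.0285 (SD, n = 4) gave an exact permutation p of 0.171, two-sided. By that measure the members had fewer near peaks than other E17.5 regions in all 10 lists. By the rule, every region of that background was open in at least 1 of these lists and no member was. The lower shares of members are therefore not independent of the rule. Nor was the first pattern seen for the E17.5 members alone. Regions open at deep-layer E13.5 alone had ratios to all closed regions of 0.757 to 1.05 in the other prenatal lists and 0.521 to 0.578 in P1 and P5 lists. For E16.5 alone these were 1.06 to 1.47 and 0.482 to 0.802, and for E18.5 alone 1.32 to 1.89 and 0.672 to 0.992. Regions open at P1 alone or P5 alone went the other way, with higher ratios in the other postnatal lists. Whether these sets differ from the members in this was not tested.

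**Figure D4:**
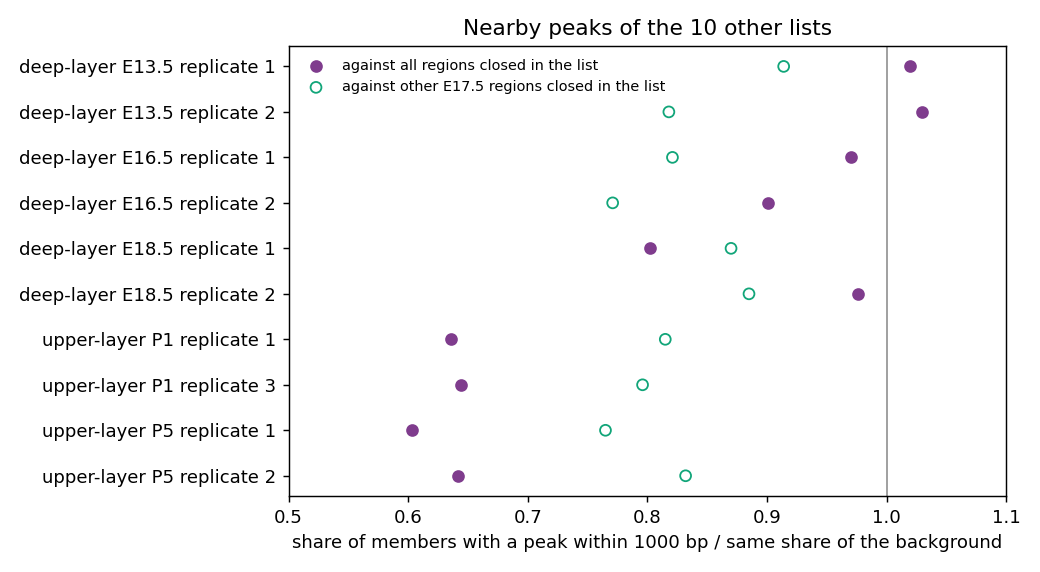
Each row is 1 of the 10 other lists, and the horizontal axis gives the share of members with a peak of that list within 1000 bp divided by the same share of a background. Filled points (all regions closed in the list) separate P1 and P5 lists at 0.603 to 0.644 from deep-layer lists, while open points (other E17.5 regions closed in the list) overlap between them.

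Along the genome the members were spread over all 19 autosomes and X. Between 9.57% (chromosome 19) and 13.5% (chromosome 18) of the E17.5 regions of an autosome were members, with a median of 11.8% over the 19 autosomes, and on the X chromosome it was 13.6% (424 of 3122). Chromosome 1 held the most members (1012) and chromosome 19 the fewest of the autosomes (256). Chromosomes 7 and 17 were also low, at 10.1% and 10.5%, and chromosomes 16 and 12 high, at 13.3% and 13.2%. For regions open at E13.5 alone the autosomes ran from 5.07% (chromosome 7) to 9.05% (chromosome 16), and X was at 8.71%. Another 15 members lay on 6 sequences other than these.

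Of 2550 windows of 1 Mb with any region open in both E17.5 lists, 180 held no member, the median was 5 and 295 held 10 or more. The richest window, on chromosome 8 from 117000001 to 118000000, held 22 members among 42 E17.5 regions, or 52.4%. Their mean peak widths had a median of 398 bp, close to that of all members, and reached 861.5 bp. The next windows were on chromosome 11 from 109000001 (18 of 56), chromosome 15 from 30000001 (18 of 65), chromosome 4 from 77000001 (18 of 51) and chromosome 1 from 160000001 (17 of 59). In these the members made up 27.7% to 35.3% of the E17.5 regions, more than the 11.8% over the genome. The windows were chosen for their count, so this is a description.

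The regions beside members were also described, with no test. Where the next region open in both E17.5 lists lay within 10000 bp, it was a member in 15.0% of cases beside a member and in 11.1% beside another region. The corresponding values were 10.4% and 6.53% for E13.5, 27.8% and 10.1% for P1, and 11.7% and 9.12% for P5. They were 1.32% and 0.969% for E16.5 and 4.51% and 3.01% for E18.5. Of the members, 15.7% had another member within 10000 bp. For regions open in another pair alone, the like share was 15.6% at P1, 8.69% at E13.5, 8.4% at P5, 4.35% at E18.5 and 1.2% at E16.5. Those sets are smaller, and the share was not adjusted for the size of the set. A region open in all 12 lists lay within that distance of 9.79% of members, beside 13.6% of the other E17.5 regions that were not open everywhere. The next region of a member was open in a median of 4 other lists and that of another E17.5 region in a median of 5.

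Most members stood singly: when members at most 10000 bp apart were joined, 11050 stayed alone, 893 pairs formed, and 76 runs had 3 members, 12 had 4 and 1 had 5. The run of 5 spanned chromosome 15 from 96419395 to 96435098, with mean peak widths of 272 to 653 bp. No other region open in both E17.5 lists lay within it, and 1 region closed at E17.5 did. A run of 4 on chromosome 1 from 62281681 to 62306972 had widths of 276 to 1054 bp and likewise held no other region open in both lists. These runs were looked for after the data had been seen.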

How the data were processed

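For each sample the authors deposited the positions of its peaks (chromosome, start, end, name) without a score or other measurement. The submitters' processing notes name MACS2 2.1.0, Picard 1.14.0, Bowtie2 and cutadapt and the build mm9. How peaks were thresholded and whether reads were shifted for the transposase is not given in the sources. As a check of the build, 845 chromosome 1 peaks fell past the end of the last GRCm38 gene, and the GRCm38 table served no other purpose. Genes, marker lists and sequences were planned and are not analysed here.

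Peaks were merged where they overlapped or touched. A distance to a peak is 1 plus the bases between. Shares per list were compared by exact permutation of lists, with the 2 lists of a stage counted as separate units. Merging, the choice of members and the distances were tested on simulated lists with planted members, and the permutation on set values. The other steps had no such test. Python 3.11.15, numpy 2.4.6, pandas 2.3.3, scipy 1.17.1 and matplotlib 3.10.9 were used.

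The members, tests and lists were chosen with earlier results of these data known. Named regions were the 10 widest members, the 3 nearest the median width, the 3 narrowest, the 5 richest windows and the 5 widest regions with 1 other open list. Chromosome 18 and the Y chromosome were left out. Alternatives were each list left out, other overlap, merging and distance rules, equal list lengths, autosomes only and a replicate block. The wide members, ranks, neighbours and runs were added after seeing the data.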

Additional observations from a re-analysis of the deposited data

How the results depend on the processing

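The count of 13132 members stayed within 1.5 times of itself under 4 of the 6 planned settings that kept all lists, and was 8442 with lists cut to their widest peaks and 7689 after random thinning. Leaving out 1 list gave 13279 to 37555, the highest without upper-layer E17.5 replicate 2 and the next, 16447, without deep-layer E13.5 replicate 2. Asking that no other list have a peak within 1000 bp, added after seeing the data, left 8595. The difference in near shares of 3.28 percentage points was 1.57 with a distance of 500 bp (exact permutation p = 0.0905), 11.2 with 5000 bp and 2.33 with lists cut to their widest peaks (exact permutation p = 0.00952 for both), and 2.56 to 3.94 with 1 list left out. With a replicate block, permuting only among lists with the same replicate number, it was 3.28 with an exact permutation p of 0.05. The list titled P1 replicate 3 carries number 2 in its peak names, and with that number, tried after seeing the data, the block gave an exact permutation p of 0.04. The numbers are not known to pair lists. The difference of ratios, 0.318, kept its direction and passed 0.05 in all planned settings (0.248 to 0.349, exact permutation p from 0.00476 to 0.025), the block included. With backgrounds added after seeing the data, it was 0.279 against closed regions open in exactly 2 lists (exact permutation p = 0.00476). Against other E17.5 regions it was 0.0444 (exact permutation p = 0.171). The cause of these changes was not tested. The share of members with another member nearby, 15.7% within 10000 bp, was 4.75% within 2000 bp and 49.7% within 50000 bp. The median width was 452 bp in replicate 1 alone and 346 bp in replicate 2 alone. Read depth was not known, and its part in membership was not tested.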
